A study of Mus musculus with 12 samples.

Results

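Siglec-H+ CD11c+ precursors with low CCR9 split into lo-lo cells, which carry little B220, and lo-hi cells, which carry much of it, and these cells were compared here by their transcripts. The study describes this precursor pool as negative or low for MHC class II protein. The cells came from bone marrow of wild type, untreated adult C57BL/6 mice. Marrow was depleted of cells bearing CD3, Ly6G, NK1.1, Ter119 or a further lineage marker before the flow cytometric sort. The series holds 12 bulk libraries, 3 each of pre-cDCs without Siglec-H, lo-lo precursors, lo-hi precursors and CCR9hi B220hi plasmacytoid dendritic cells (pDCs), made by SCRB-seq, which tags transcripts with barcodes near their 3′ end. Of these, the 3 lo-hi libraries (wells A3, A7 and A11) and the 3 lo-lo libraries (wells A2, A6 and A10) were compared, and the other 6 entered the estimate of the spread. The study's legend speaks of 3 individual mice, whereas its methods describe sorting from pooled marrow of sex- and age-matched animals, so a library may hold 1 mouse or a pool.

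The grouping of wells did not follow the deposited cell type labels. Wells were given to populations by matching the order of 28 transcription factors within each library to that in source data of the study, since the deposited labels contradict that order. Each of the 12 source samples had 1 well in which 0 of 378 pairs of factors were ordered differently, and every other well had at least 7 such pairs. The deposited label names the same population in 4 of 12 wells, and in 2 of the 6 wells compared, A6 (lo-lo 2) and A7 (lo-hi 2). With the wells grouped by their deposited labels instead, 0 of 15265 genes passed the threshold of edgeR's quasi-likelihood test used below, and 138 had an unadjusted p under 0.05. Every direction given here thus holds for the wells as matched. The 28 factors that made the match are described without a test and are left out of all counts. Transcripts of the Y-linked gene Ddx3y were measured at 29.03 CPM (counts scaled to 1000000 per library) in lo-lo 3 and 47.4 CPM in lo-hi 3 and at 1.33 to 3.62 CPM in the other 4 libraries, which sets the third number apart from the first 2 in both populations.

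Plasmacytoid dendritic cells are the immune system's rapid source of type I interferon and sense viral nucleic acids through endosomal Toll-like receptors. They develop in the bone marrow from Flt3-dependent progenitors, keep several lymphoid traits and leave the cell cycle as they mature. E proteins, above all E2-2 (Tcf4), drive their program, and Id2 opposes it in the conventional dendritic cell (cDC) lineage. CCR9 and B220, an isoform of the phosphatase CD45, are acquired along this path and are used to stage it.

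Of 21754 genes in the table, 15293 reached a mean count of 1 across the 12 wells, and 15265 of them were tested. At an adjusted p under 0.01, 785 genes (5.14%) differed between lo-hi and lo-lo precursors. Of these, 354 (2.32%) were higher and 431 (2.82%) were lower in lo-hi cells. The median log2 fold change was 1.23 among the higher genes, -1.22 among the lower genes and 0.01 among all genes tested. A change of at least 1 on the log2 scale was seen for 234 of the higher and 315 of the lower genes, and one of at least 2 for 51 and 13. Shares of a gene list called higher or lower are given below to be read against these 2.32% and 2.82%, or 5.14% in either direction. These shares of all genes are not matched for level. The median of the mean CPM over the 6 libraries was 32.4 for the higher, 28.5 for the lower and 10.4 for all tested genes. How far level accounts for the share of a list was not tested. In all 785 the CPM of the 3 lo-hi libraries did not overlap those of the 3 lo-lo libraries, as held for 27.4% of all genes tested. The count depended on single libraries. It was 376 without lo-hi 1, 481 without lo-lo 3 and 511 without lo-hi 2, and between 605 and 689 without each of the others. With replicate numbers as a block, 2037 genes passed when only the 6 libraries were fitted.

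**Figure D1:**
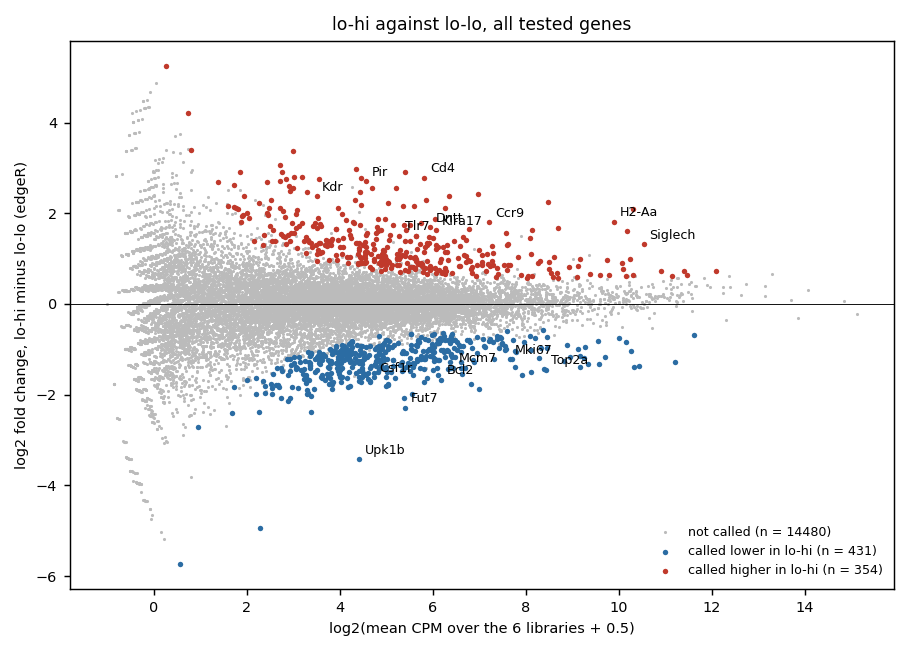
Each point is 1 of 15265 genes, with the mean level over the 6 libraries on the horizontal axis (log2 of CPM plus 0.5) and the log2 fold change of lo-hi over lo-lo cells on the vertical axis. Red points are the 354 genes called higher and blue points the 431 called lower in lo-hi precursors, with the genes not called in grey.

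Depth and composition overlapped between the populations. Total counts ranged from 1801463 to 4454439 over the 6 libraries, so that a count of 3 stood for 0.673 to 1.67 CPM. Mitochondrial genes took 5.33 to 11.5% of counts in lo-lo and 6.72 to 10.7% in lo-hi libraries (exact permutation test, two-sided, p = 0.9, with 0.1 the smallest p that 3 against 3 allow). Counts of a gene in a sorted bulk sample cannot tell more cells of a type from more RNA per cell.

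The genes of the sort behaved as follows and are a check of the gates rather than a result. Ccr9, which encodes the gut-homing receptor CCR9, stood at 65.8, 69.3 and 62.8 CPM in lo-lo and 251, 221 and 219 CPM in lo-hi libraries. Although both gates were set on low CCR9 protein, the lo-hi libraries were higher (log2 fold change 1.81 ± 0.18 (SE), adjusted p = 1.11e-06). Siglech, the pDC lectin that both populations bear, stood at 835, 999.6 and 729 CPM in lo-lo and 2039, 2367 and 1987 CPM in lo-hi libraries (log2 fold change 1.32 ± 0.20, adjusted p = 0.000192). Itgax, the gene of CD11c, was lower in lo-hi cells (log2 fold change -0.74 ± 0.18, adjusted p = 0.00788), although that call was lost without any 1 of 5 libraries (highest adjusted p = 0.0765, without lo-hi 2). Ptprc, whose B220 isoform defined the split, stood at 157, 185 and 136 CPM in lo-lo and 219, 233 and 187 CPM in lo-hi libraries and did not pass the test (log2 fold change 0.42 ± 0.19, adjusted p = 0.203). Counts per gene do not separate its isoforms.

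Most genes of the pDC identity list were higher in lo-hi precursors. Of 35 tested, 21 (60%) were called higher and 0 lower, against 2.32% and 2.82% of all genes, and the median log2 fold change of the 35 was 0.84. The 21 include Ccr9, a gene of the sort. Without single libraries the number called ranged from 15 to 20. Klra17 encodes the Ly49Q receptor of pDCs and lies at chr6:129831154-129876672 on GRCm38 (GENCODE annotation, as for the positions below). It stood at 32.5, 36.5 and 29.7 CPM in lo-lo and 123, 99.3 and 78.8 CPM in lo-hi libraries (log2 fold change 1.63 ± 0.20, adjusted p = 9.65e-06), with all lo-hi libraries above all lo-lo libraries. Cd209d, a C-type lectin, showed 78.5, 102 and 109 CPM in lo-lo and 333, 278 and 249 CPM in lo-hi libraries (log2 fold change 1.57 ± 0.16, adjusted p = 1.42e-06). Pacsin1, an endocytic adaptor that pDCs use for interferon production, rose from 59.6, 52.2 and 60.1 CPM in lo-lo to 176, 143 and 138 CPM in lo-hi libraries (log2 fold change 1.41 ± 0.18, adjusted p = 8.77e-06). These 3 genes separated the populations without overlap, and lo-hi 1 was the highest library for each. Smim5, a small membrane protein (log2 fold change 1.45 ± 0.17, adjusted p = 4.41e-06), and Cox6a2, a subunit of cytochrome c oxidase (log2 fold change 0.90 ± 0.15, adjusted p = 0.000263), moved the same way. Bst2, the tetherin recognised by pDC antibodies, was also higher (log2 fold change 0.77 ± 0.17, adjusted p = 0.00268), but its adjusted p reached 0.0394 without lo-hi 1 and was also over 0.01 without lo-hi 2 or lo-lo 3. Ly6d, a marker of lymphoid-primed and pDC precursors, overlapped between populations, with 2068, 1616 and 2445 CPM in lo-lo and 2523, 1928 and 2739.6 CPM in lo-hi libraries (log2 fold change 0.23 ± 0.16, adjusted p = 0.502).

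T cell coreceptors that mouse pDCs also carry were higher in lo-hi cells, and Cd4 was among the strongest changes of this program. Cd4 (chr6:124864692-124888221) stood at 10.3, 22.5 and 10.7 CPM in lo-lo and 115, 109 and 68.9 CPM in lo-hi libraries (log2 fold change 2.79 ± 0.32, adjusted p = 4.57e-05). Cd8a stood at 13.3, 8.53 and 13.8 CPM in lo-lo and 35.8, 30.01 and 38.03 CPM in lo-hi libraries (log2 fold change 1.52 ± 0.24, adjusted p = 0.000119). The CD3 chain gene Cd3d was between 0 and 3.10 CPM in the 6 libraries. Cd3g, another CD3 chain gene, stood at 0.591, 0.341 and 0 CPM in lo-lo and 1.325, 2.07 and 1.65 CPM in lo-hi libraries. These levels, at or near the floor, did not overlap, but Cd3g did not pass the edgeR test (log2 fold change 2.36 ± 0.98, adjusted p = 0.159). Other members of the T and NK cell list were higher, such as Klrd1 with 50.8, 55.97 and 61.9 CPM in lo-lo and 81.3, 79.2 and 83.8 CPM in lo-hi libraries. Klrd1 did not pass the edgeR test (log2 fold change 0.53 ± 0.16, adjusted p = 0.0432). In that list 2 of 18 genes (11.1%) passed. These were the costimulatory receptor Cd28 (log2 fold change 1.25 ± 0.25, adjusted p = 0.0011), whose call was lost without lo-hi 1 (adjusted p = 0.0208) or lo-lo 3, and Klrk1, the NKG2D receptor, which was lower in lo-hi cells with 27.5, 20.5 and 23.9 CPM in lo-lo and 7.29, 9.83 and 6.61 CPM in lo-hi libraries (log2 fold change -1.61 ± 0.23, adjusted p = 3.14e-05).

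**Figure D2:**
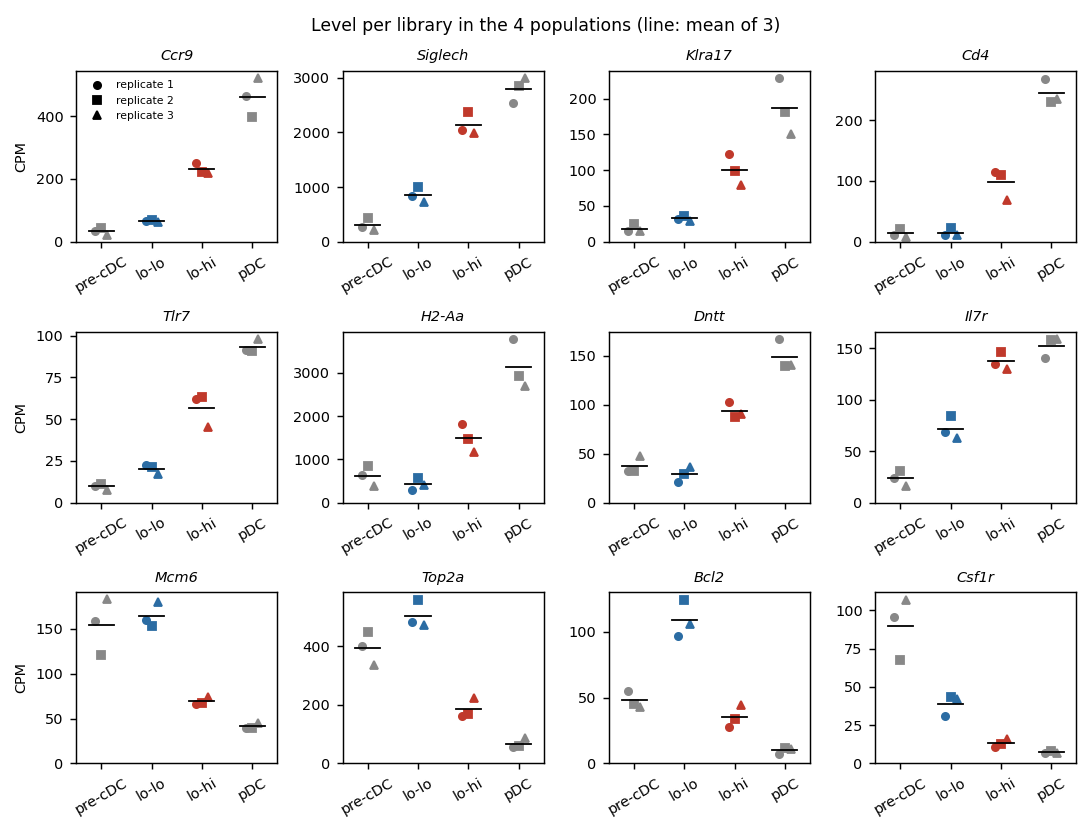
CPM of 12 genes (1 panel each, vertical axis from 0) in the 3 libraries of each population, with circles, squares and triangles for replicates 1, 2 and 3, lo-lo in blue, lo-hi in red, the other populations in grey and a line at the mean of 3. In every panel the lo-hi points lie apart from the lo-lo points, above them in the upper and middle rows and below them in the lower row.

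Nucleic acid sensing genes went the same way in part. In the endosomal TLR list 5 of 23 genes (21.7%) were higher, 0 were lower and the median log2 fold change was 0.29. Tlr7 (chrX:167304929-167330558), the receptor for single-stranded RNA, stood at 22.4, 21.2 and 16.97 CPM in lo-lo and 61.8, 63.1 and 45.2 CPM in lo-hi libraries (log2 fold change 1.51 ± 0.18, adjusted p = 7.56e-06). Pld4, an endolysosomal exonuclease that limits such sensing, stood at 589, 599 and 556 CPM in lo-lo and 1238, 1129 and 1028 CPM in lo-hi libraries (log2 fold change 0.96 ± 0.15, adjusted p = 8e-05). Ctsl, the cysteine protease cathepsin L, showed 201, 208 and 185 CPM in lo-lo and 676, 669 and 554 CPM in lo-hi libraries (log2 fold change 1.68 ± 0.21, adjusted p = 2.16e-05). Levels in the 2 groups did not overlap for any of these 3. Tlr12, which senses profilin, and cathepsin B (Ctsb) were also called (log2 fold changes 0.95 and 0.62), but Tlr12 lost its call without lo-hi 1 (adjusted p = 0.022) and Ctsb without any 1 of the 6 libraries (highest adjusted p = 0.0569, without lo-hi 1). Of 38 interferon-stimulated genes, 2 were called higher (5.26%, against 2.32% of all genes), Bst2 and Stat2, and the list's median was 0.64. Stat2, which transmits the interferon receptor's signal, stood at 69.99, 77.1 and 58.1 CPM in lo-lo and 144, 153 and 127 CPM in lo-hi libraries (log2 fold change 1.05 ± 0.19, adjusted p = 0.000367). The remaining 36 did not pass, among them Ifi44 with 10.3, 12.6 and 2.68 CPM in lo-lo and 37.1, 38.8 and 22.6 CPM in lo-hi libraries (log2 fold change 2.03 ± 0.44, adjusted p = 0.0135).

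Some antigen presentation genes were higher. The study describes the precursor pool as negative or low for MHC class II protein, so H2-Aa and H2-Ab1 are read with the genes of the sort. They are counted in the list below, but their values are a check of the gates rather than a result. Of 16 genes of the MHC class II list, 5 (31.2%) were higher and 0 lower, with a median log2 fold change of 0.32. H2-Aa, the class II alpha chain, stood at 301, 561 and 414 CPM in lo-lo and 1829.8, 1482 and 1171 CPM in lo-hi libraries (log2 fold change 1.82 ± 0.31, adjusted p = 0.00298). H2-Ab1, the beta chain (log2 fold change 1.60 ± 0.28, adjusted p = 0.00304), and Cd74, the invariant chain, with 373, 577 and 499 CPM in lo-lo and 2831, 1885 and 1447 CPM in lo-hi libraries (log2 fold change 2.09 ± 0.34, adjusted p = 0.00302), were higher as well. Spread was wide here, with lo-hi 1 the highest and lo-hi 3 the lowest of the lo-hi libraries for all 3 genes. Without lo-lo 3 these 3 calls were lost (adjusted p = 0.0208, 0.0223 and 0.0205), H2-Ab1 also without lo-hi 1 or lo-hi 2, and in the 6-library fit with a replicate block the adjusted p was 0.148 for H2-Aa and 0.17 for Cd74. Reads can be shared where class II genes are alike in sequence, and how far this holds for these genes was not measured. H2-Oa, which tempers peptide loading, stood at 16.2, 17.4 and 20.3 CPM in lo-lo and 50.6, 49.1 and 42.99 CPM in lo-hi libraries (log2 fold change 1.40 ± 0.19, adjusted p = 1.98e-05). Ciita, the class II transactivator, was scarce, with 0.886, 1.36 and 1.12 CPM in lo-lo and 7.95, 4.14 and 4.41 CPM in lo-hi libraries (log2 fold change 2.39 ± 0.41, adjusted p = 0.000283), and its adjusted p was 0.0251 without lo-hi 1. H2-Eb1 did not pass (log2 fold change 1.49 ± 0.37, adjusted p = 0.0345). From the MHC class I list 4 of 17 genes (23.5%) were higher and 0 lower. H2-K1, a classical class I heavy chain, stood at 869, 869.9 and 684 CPM in lo-lo and 1819.9, 1656 and 1339.8 CPM in lo-hi libraries (log2 fold change 0.99 ± 0.16, adjusted p = 0.000131). H2-Q7 was higher too (log2 fold change 1.65 ± 0.23, adjusted p = 6.15e-05), though Q region genes are close copies. B2m (log2 fold change 0.64) and the immunoproteasome subunit Psmb10 (0.57) were called, but B2m lost its call without any 1 of 5 libraries and Psmb10 without any 1 of 6 (highest adjusted p = 0.0965 without lo-hi 1, and 0.0487 without lo-lo 1).

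Some lymphoid and immunoglobulin genes were higher in lo-hi cells. In the B and early lymphoid list 5 of 29 genes (17.2%) were higher, 1 (3.45%) was lower and the median log2 fold change was 0.55. Dntt (chr19:41029275-41059525), the terminal transferase that adds bases to rearranging receptor genes, stood at 20.7, 29.4 and 36.6 CPM in lo-lo and 103, 87.95 and 90.4 CPM in lo-hi libraries (log2 fold change 1.69 ± 0.20, adjusted p = 4.91e-06). Fcrla, an intracellular Fc receptor-like protein, stood at 84.2, 77.5 and 70.3 CPM in lo-lo and 209.8, 159.9 and 156 CPM in lo-hi libraries (log2 fold change 1.19 ± 0.18, adjusted p = 6.15e-05). Il7r, the interleukin-7 receptor, stood at 68.8, 83.95 and 62.98 CPM in lo-lo and 135, 147 and 130.1 CPM in lo-hi libraries (log2 fold change 0.94 ± 0.18, adjusted p = 0.000745), with an adjusted p of 0.0116 without lo-lo 3. Lo-hi libraries lay above lo-lo libraries for each. The adaptor Blnk (log2 fold change 0.85) and the receptor chain Cd79b (0.75) were called too, but adjusted p rose to 0.0153 and 0.0966 without lo-hi 1, and each call also fell without lo-lo 3, that of Cd79b further without lo-lo 2 or lo-hi 3. Cd22, an inhibitory lectin, was the gene called lower (log2 fold change -1.27 ± 0.28, adjusted p = 0.00324), with an adjusted p of 0.071 without lo-hi 1 and over 0.01 without 3 other libraries. Of the markers that define B cells, Cd79a stood between 0 and 2.20 CPM and Ms4a1 between 0.223 and 3.62 CPM, at or near the floor. Among 12 plasma cell and immunoglobulin genes, 3 (25%) were higher. Mzb1, a chaperone of antibody-secreting cells and pDCs, stood at 29.5, 29.01 and 28.4 CPM in lo-lo and 146, 109 and 119 CPM in lo-hi libraries (log2 fold change 2.11 ± 0.31, adjusted p = 0.00041). Iglc2, a lambda light chain constant region with near-identical copies, stood at 15.9, 8.87 and 7.82 CPM in lo-lo and 86.6, 57.4 and 42.99 CPM in lo-hi libraries (log2 fold change 2.56 ± 0.29, adjusted p = 2.12e-05). Xbp1, the factor of the unfolded protein response, was higher (log2 fold change 0.80 ± 0.17, adjusted p = 0.00225) and lost its call without any 1 of 5 libraries (highest adjusted p = 0.0353, without lo-hi 1). Jchain, a plasma cell gene, stood at 5.80 to 15.7 CPM in lo-lo and 4.14 to 11.7 CPM in lo-hi libraries.

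Proliferation genes fell in lo-hi precursors. Of 60 genes of S phase and DNA replication, 41 (68.3%) were lower and 0 higher, with a median log2 fold change of -1.16, and the estimate was below 0 for all 60. Of 60 genes of G2 and mitosis, 53 (88.3%) were lower and 0 higher, with a median of -1.21. Leaving out single libraries gave 25 to 37 and 32 to 48 calls. The summed level of the S phase list was 3399 to 3833 CPM in lo-lo and 1634 to 1972 CPM in lo-hi libraries, and that of the G2 and mitosis list 5229 to 5560.0 and 2339 to 2903 CPM. The same sums were 2737 to 3611 and 5063 to 6151 CPM in pre-cDCs, and 1070 to 1124 and 1137 to 1342 CPM in pDCs.

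The replicative helicase showed the S phase pattern. Mcm7 stood at 118, 129 and 129 CPM in lo-lo and 46.8, 43.5 and 52.4 CPM in lo-hi libraries (log2 fold change -1.40 ± 0.16, adjusted p = 4.41e-06). Mcm3 (log2 fold change -1.41 ± 0.18, adjusted p = 1.4e-05) and Mcm6, with 159, 153 and 180.0 CPM in lo-lo and 66.3, 67.8 and 74.4 CPM in lo-hi libraries (log2 fold change -1.24 ± 0.16, adjusted p = 1.77e-05), are subunits of the same ring. DNA ligase I (Lig1) joins the fragments of the lagging strand and stood at 124, 155 and 142 CPM in lo-lo and 40.2, 54.3 and 65.6 CPM in lo-hi libraries (log2 fold change -1.42 ± 0.18, adjusted p = 8.77e-06). In each of these genes the lowest lo-lo library stood above the highest lo-hi library. Pcna, the sliding clamp, stood at 138, 127 and 158 CPM in lo-lo and 78.8, 80.7 and 78.8 CPM in lo-hi libraries (log2 fold change -0.83 ± 0.15, adjusted p = 0.000545). For mitosis, Top2a (chr11:98992943-99024189), the topoisomerase that untangles chromosomes, stood at 482, 558 and 471 CPM in lo-lo and 162, 167 and 225 CPM in lo-hi libraries (log2 fold change -1.45 ± 0.18, adjusted p = 7.56e-06). Kif11, the spindle motor (log2 fold change -1.40 ± 0.18, adjusted p = 1.15e-05), Hmgb2, a chromatin protein (log2 fold change -1.17 ± 0.15, adjusted p = 1.18e-05), Tacc3, a spindle stabiliser (log2 fold change -1.26 ± 0.17, adjusted p = 2.12e-05), and Cdk1, the mitotic kinase (log2 fold change -1.29 ± 0.19, adjusted p = 6.47e-05), were lower. Mki67, the proliferation antigen, stood at 262, 345 and 235 CPM in lo-lo and 103, 105 and 155 CPM in lo-hi libraries (log2 fold change -1.22 ± 0.24, adjusted p = 0.00207), and its adjusted p reached 0.0225 without lo-hi 1 and also missed the threshold without lo-hi 2. Pttg1, the anaphase inhibitor securin, was the member of that list with an estimate above 0 (0.32, adjusted p = 0.36).

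Promoters of a few of these genes, and of genes that define the pDC side, are shown because the members moved together. Each is the 250 bases before the start listed by RefSeq (build GRCm38.p6), read 5′ to 3′ along the gene, with motif letters on either strand in capitals. In Mcm6, Cdk1 and Top2a these are TTCGCGC or TTGGCGC, sites of the E2F kind, which overlap each other where both strands match, TTTGAA, the core of the cell cycle homology region (CHR), and CCAAT. In Ccr9 and Siglech they are the E-box CANNTG, of which CAGGTG is a special case.
Mcm6 (chr1:128359706-128359955, minus strand): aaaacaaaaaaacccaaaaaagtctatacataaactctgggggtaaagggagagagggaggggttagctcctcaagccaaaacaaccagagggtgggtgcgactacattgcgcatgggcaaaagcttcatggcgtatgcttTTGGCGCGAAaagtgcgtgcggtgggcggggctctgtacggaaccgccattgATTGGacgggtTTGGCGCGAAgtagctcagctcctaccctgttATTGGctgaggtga
Cdk1 (chr10:69352913-69353162, minus strand): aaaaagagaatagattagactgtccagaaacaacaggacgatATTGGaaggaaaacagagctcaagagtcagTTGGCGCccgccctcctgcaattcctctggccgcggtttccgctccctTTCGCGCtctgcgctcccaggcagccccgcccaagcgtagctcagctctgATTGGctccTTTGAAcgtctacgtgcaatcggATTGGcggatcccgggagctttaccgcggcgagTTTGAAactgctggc
Top2a (chr11:99024190-99024439, minus strand): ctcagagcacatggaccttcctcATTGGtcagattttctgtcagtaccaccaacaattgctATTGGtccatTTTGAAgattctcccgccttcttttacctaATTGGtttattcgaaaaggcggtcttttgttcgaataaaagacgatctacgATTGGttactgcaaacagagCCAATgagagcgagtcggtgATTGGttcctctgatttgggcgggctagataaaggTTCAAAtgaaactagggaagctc
Ccr9 (chr9:123766961-123767210, plus strand): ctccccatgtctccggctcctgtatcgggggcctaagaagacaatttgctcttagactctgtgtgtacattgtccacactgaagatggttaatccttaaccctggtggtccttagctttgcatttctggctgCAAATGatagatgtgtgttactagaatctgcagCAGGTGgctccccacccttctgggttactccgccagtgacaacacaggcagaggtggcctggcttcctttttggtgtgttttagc
Siglech (chr7:55767934-55768183, plus strand): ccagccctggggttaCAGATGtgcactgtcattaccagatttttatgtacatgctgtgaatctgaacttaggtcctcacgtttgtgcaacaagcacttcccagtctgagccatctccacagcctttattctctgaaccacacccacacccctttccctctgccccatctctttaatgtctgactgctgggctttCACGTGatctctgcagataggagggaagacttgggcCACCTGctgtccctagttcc

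For Ccr9 the GENCODE gene model begins upstream of the RefSeq start, so that this window lies within it. The Mcm6 window held 4 E2F matches in 2 overlapping pairs, 0 CHR matches and 2 of CCAAT. The Cdk1 window held 2 of E2F, 2 of CHR and 3 of CCAAT, and the Top2a window 0 of E2F, 2 of CHR and 6 of CCAAT. E-boxes, left in lower case there, numbered 0, 1 and 3 in these 3 windows. The Ccr9 window held 2 E-boxes and the Siglech window 3, and both held 0 matches of the other motifs. Letter matches are a description and not evidence of binding. In 300-base windows that add 50 bases after the start, TTTGAA occurred in 36 of 51 genes of G2 and mitosis (70.6%) and in 18.1% of 27025 genes with a window. CCAAT occurred in 39 of the 51 (76.5%) and in 37.9% of all. E2F letters occurred in 7 of the 51 (13.7%) and in 3.98% of all, and CANNTG in 30 (58.8%) and 72.1%. The same check was void for the S phase and pDC identity lists, where under 80% of genes had a window (75% and 77.1%).

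Most histone genes and some genes of nucleotide synthesis were lower as well. Of 19 histone genes 12 (63.2%) were lower and 0 higher, with a median log2 fold change of -1.23. Hist1h2ab stood at 402, 396 and 426 CPM in lo-lo and 119, 148 and 165 CPM in lo-hi libraries (log2 fold change -1.51 ± 0.16, adjusted p = 2.32e-06), and Hist1h4d (log2 fold change -1.87 ± 0.22, adjusted p = 9.34e-06), Hist1h1b (log2 fold change -1.77 ± 0.22, adjusted p = 1.55e-05) and Hist1h1d (log2 fold change -1.79 ± 0.24, adjusted p = 2.64e-05) were among the 12 genes with the largest fall. Core histone genes are near copies of each other, so reads of single members are uncertain, less so for the linker histones H1. Of 29 nucleotide synthesis genes, 8 (27.6%) were lower, 0 higher and 21 did not pass, with a median log2 fold change of -0.46. Rrm2 and Rrm1, subunits of ribonucleotide reductase, stood at log2 fold changes of -1.27 ± 0.20 and -1.09 ± 0.19, and thymidylate synthase (Tyms) at -1.18 ± 0.20. Of 30 ribosome biogenesis genes 0 passed with edgeR, DESeq2 or limma voom, and 3 had an unadjusted p under 0.05 with edgeR.

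Cell cycle entry and survival genes were also lower in part. Of 28 genes of G1 cyclins, kinases and inhibitors, 5 (17.9%) were lower and 1 (3.57%) was higher. Ccnd2 stood at 80.03, 99.7 and 113 CPM in lo-lo and 42.9, 36.2 and 44.1 CPM in lo-hi libraries (log2 fold change -1.25 ± 0.19, adjusted p = 5.88e-05) and Ccnd3 at 86.2, 64.5 and 84.6 CPM in lo-lo and 34.9, 29.5 and 42.4 CPM in lo-hi libraries (log2 fold change -1.15 ± 0.18, adjusted p = 8.4e-05), both D-type cyclins that start the cycle. Cdk2, the kinase partner of cyclins E and A, was called lower (log2 fold change -0.84 ± 0.20, adjusted p = 0.0068), but not without any 1 of the 6 libraries (highest adjusted p = 0.0489, without lo-hi 2). Btg2, an antiproliferative gene, was the one called higher, with 189, 162 and 174 CPM in lo-lo and 407, 386 and 330.1 CPM in lo-hi libraries (log2 fold change 1.10 ± 0.15, adjusted p = 1.82e-05). Of 16 genes of the BCL2 family 2 (12.5%) were lower. Bcl2 (chr1:106538178-106714274), which blocks mitochondrial apoptosis, stood at 96.9, 124 and 106 CPM in lo-lo and 27.4, 33.6 and 44.1 CPM in lo-hi libraries (log2 fold change -1.67 ± 0.19, adjusted p = 4.91e-06), and the lo-hi libraries were all under the lowest lo-lo library. Its opponent Pmaip1 (Noxa) was lower too (log2 fold change -1.31 ± 0.27, adjusted p = 0.00162), with an adjusted p of 0.0325 without lo-lo 3 and over 0.01 without lo-hi 1 or lo-hi 2.

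Myeloid and progenitor genes fell singly. Csf1r (chr18:61100598-61132149), the receptor for macrophage colony-stimulating factor and a mark of dendritic cell progenitors, stood at 31.3, 43.7 and 42.2 CPM in lo-lo and 11.04, 12.4 and 15.98 CPM in lo-hi libraries (log2 fold change -1.61 ± 0.22, adjusted p = 2.14e-05). Ms4a6c, a tetraspan membrane protein of monocytes, stood at 338, 360.4 and 376 CPM in lo-lo and 97.6, 126 and 142 CPM in lo-hi libraries (log2 fold change -1.56 ± 0.16, adjusted p = 1.09e-06). Lgals3, galectin-3, stood at 606, 567 and 750.4 CPM in lo-lo and 234, 251 and 323 CPM in lo-hi libraries (log2 fold change -1.25 ± 0.17, adjusted p = 2.2e-05). The lo-lo and lo-hi libraries did not overlap for these 3, and with S100a4 they made up the 4 genes of 29 (13.8%) in the monocyte and macrophage list that were lower, beside 1 (3.45%) that was higher, Cd68. Defining macrophage markers were at or near the floor, with Adgre1 between 0.551 and 1.56 CPM and Fcgr1 between 0.295 and 1.71 CPM. Of 26 cDC lineage genes outside the matching factors, 3 (11.5%) were higher and 2 (7.69%) lower, with a median of 0.01. The higher ones were the adhesion molecule Cadm1 (log2 fold change 0.91), the receptor Sirpa (0.67) and the shared cytokine receptor chain Csf2rb (0.72). Each lost its call without any 1 of 5 libraries (highest adjusted p = 0.1, 0.0545 and 0.0281, all without lo-hi 1), as did the fractalkine receptor Cx3cr1, the second lower one beside Csf1r (log2 fold change -0.67, highest adjusted p = 0.0903 without lo-hi 1). Clec9a stood at 34.8 to 40.3 CPM in lo-lo and 34.7 to 49.9 CPM in lo-hi libraries, and Xcr1, the cDC1 chemokine receptor, at 0.517 to 4.91 CPM in all 6.

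Progenitor genes gave 4 lower (14.3%) and 0 higher calls among 28. Cd93 stood at 71.8, 73.03 and 76.6 CPM in lo-lo and 31.1, 34.1 and 43.5 CPM in lo-hi libraries (log2 fold change -1.04 ± 0.17, adjusted p = 0.000119). Cd34, Adgrg1 and Egfl7, surface or secreted products of early progenitors and endothelium, had log2 fold changes of -1.62 ± 0.31, -1.47 ± 0.28 and -1.39 ± 0.30 and lost their calls without lo-hi 1 (adjusted p = 0.011, 0.0331 and 0.0459), Adgrg1 and Egfl7 also without lo-lo 3 and Egfl7 without lo-hi 2. Flt3, the receptor on which dendritic cell development depends, did not pass, with 163, 169 and 184 CPM in lo-lo and 129, 117 and 151 CPM in lo-hi libraries (log2 fold change -0.38 ± 0.15, adjusted p = 0.129). Kit, the stem cell factor receptor, was low in both, with 7.97, 6.14 and 6.70 CPM in lo-lo and 5.30, 4.66 and 5.51 CPM in lo-hi libraries (log2 fold change -0.42 ± 0.32, adjusted p = 0.543).

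Receptors for cytokines, chemokines and adhesion changed in both directions. Cxcr3, which follows interferon-induced chemokines, stood at 17.1, 14.3 and 16.3 CPM in lo-lo and 59.2, 50.7 and 50.1 CPM in lo-hi libraries (log2 fold change 1.75 ± 0.25, adjusted p = 4.91e-05). Cxcr4, which holds cells in the marrow, did not pass, with 35.7, 35.1 and 38.4 CPM in lo-lo and 20.8, 22.8 and 26.4 CPM in lo-hi libraries (log2 fold change -0.66 ± 0.19, adjusted p = 0.024). In all, 3 of 20 chemokine receptor genes (15%) were higher and 2 (10%) lower. The 3 include Ccr9, a gene of the sort. Cytokine receptors split into 5 higher (16.1%) and 4 lower (12.9%) of 31. Without single libraries these numbers ranged from 0 to 3 and from 1 to 3. The receptor chain Il6st, gp130, was lower (log2 fold change -1.01 ± 0.20, adjusted p = 0.00136) but not without lo-hi 1 (adjusted p = 0.033). Csf2rb2 (log2 fold change 0.72) and Il21r (0.86) were higher, each losing the call without any 1 of 4 libraries (highest adjusted p = 0.0276 without lo-hi 1, and 0.0198 without lo-lo 1). For adhesion, 6 of 31 genes (19.4%) were higher and 2 (6.45%) lower, and the number called higher was 3 to 4 without single libraries. Cd44, the hyaluronan receptor, stood at 137, 141 and 141 CPM in lo-lo and 269.9, 242 and 249 CPM in lo-hi libraries (log2 fold change 0.86 ± 0.14, adjusted p = 0.000148). Itgal, the alpha chain of LFA-1, was higher (log2 fold change 0.95 ± 0.16, adjusted p = 0.000196), as was Ly6a, Sca-1, with 148, 157 and 108 CPM in lo-lo and 507, 492 and 274 CPM in lo-hi libraries (log2 fold change 1.63 ± 0.25, adjusted p = 0.000443), where lo-hi 3 stood well under the other lo-hi libraries and adjusted p was 0.0274 with only the 6 libraries in the fit.

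Lineage regulators outside the matching factors gave 3 higher (8.82%) and 1 lower call (2.94%) of 34, against 2.32% and 2.82% of all genes. Id3, an inhibitor of E proteins, stood at 6.50, 8.19 and 8.04 CPM in lo-lo and 34.9, 15.5 and 29.8 CPM in lo-hi libraries (log2 fold change 1.85 ± 0.29, adjusted p = 0.000121). Ets1, a lymphoid factor, stood at 19.2, 22.5 and 15.2 CPM in lo-lo and 45.7, 49.1 and 40.2 CPM in lo-hi libraries (log2 fold change 1.26 ± 0.22, adjusted p = 0.000357). Nfkb2 was higher and Klf10 lower (log2 fold changes 1.12 ± 0.26 and -0.90 ± 0.20), and both calls depended on single libraries (highest adjusted p = 0.0444 without lo-lo 3, and 0.0348 without lo-hi 2). The list of Fc receptor and ITAM signaling genes gave 6 higher (20%) and 0 lower of 30. Among them Cd300c, an activating receptor, stood at 145, 137 and 148 CPM in lo-lo and 296, 250.4 and 228 CPM in lo-hi libraries (log2 fold change 0.85 ± 0.15, adjusted p = 0.000288). The 6 include Siglech, a gene of the sort.

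The 28 matching factors are given as description. Batf3, a cDC1 factor, stood at 1.77, 2.05 and 2.90 CPM in lo-lo and 0.442, 1.03 and 1.10 CPM in lo-hi libraries, Klf4 at 125, 134 and 159.9 CPM in lo-lo and 33.4, 37.2 and 90.9 CPM in lo-hi libraries and Zbtb46, the cDC factor, at 11.2, 9.21 and 14.1 CPM in lo-lo and 4.20, 4.14 and 7.72 CPM in lo-hi libraries. Spi1 (PU.1) stood at 54.9, 55.97 and 65.2 CPM in lo-lo and 24.3, 30.01 and 24.2 CPM in lo-hi libraries. These 4 had the lowest estimates among the 28, from -1.59 to -1.18 on the log2 scale. Irf7, the interferon regulator of pDCs, stood at 111, 92.8 and 63.9 CPM in lo-lo and 285, 212 and 130.1 CPM in lo-hi libraries, Tcf4 at 1424, 1809 and 1329.7 CPM in lo-lo and 2201, 2734 and 2619.5 CPM in lo-hi libraries and Spib at 218, 212 and 242 CPM in lo-lo and 406, 347 and 308 CPM in lo-hi libraries. Estimates were 1.24 for Irf7, 1.17 for Relb, 1.17 for Notch4, 0.81 for Irf1, 0.73 for Tcf4 and 0.66 for Spib, and those of the other 18 lay between -0.83 (Nfil3) and 0.31 (Stat3). For Id2, the estimate was 0.14.

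**Figure D3:**
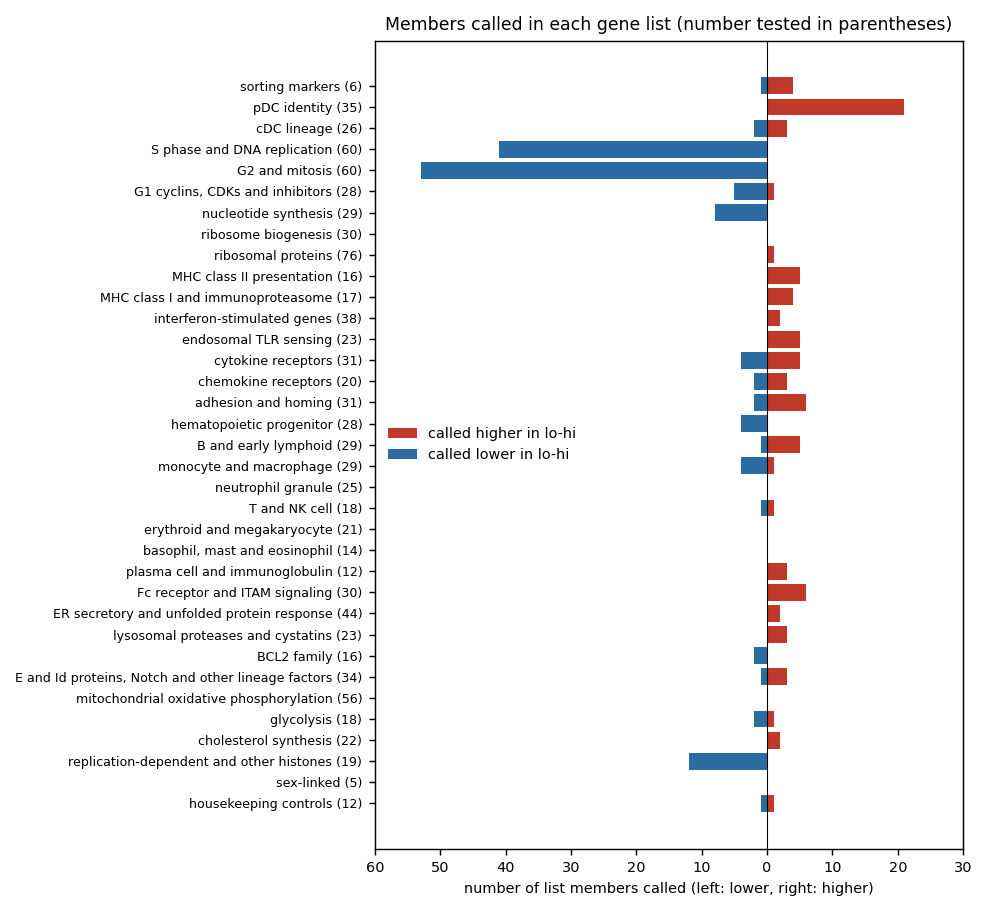
Horizontal bars give, for each gene list, how many members were called higher (red, to the right) or lower (blue, to the left) in lo-hi than in lo-lo precursors, with the number tested after the list's name. The longest bars are 53 of 60 for G2 and mitosis, 41 of 60 for S phase and DNA replication and 21 of 35 for pDC identity.

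Among the 12 genes with the largest rise by the naming rule were several that no list held. The kallikreins Klk1b3, with 4.43, 5.80 and 3.57 CPM in lo-lo and 44.2, 36.7 and 23.7 CPM in lo-hi libraries (log2 fold change 2.98 ± 0.28, adjusted p = 4.79e-07), and Klk1b27 (log2 fold change 2.92 ± 0.29, adjusted p = 5.2e-06) are secreted serine proteases whose family members are near copies, so that reads may be shared. Ccdc162 (log2 fold change 2.47 ± 0.23, adjusted p = 3.42e-07), the iron-binding nuclear protein Pir (log2 fold change 2.70 ± 0.28, adjusted p = 4.18e-06), the synaptic adhesion gene Nrxn2 (log2 fold change 2.75 ± 0.32, adjusted p = 4.91e-06), the receptor Slamf9 (log2 fold change 2.38 ± 0.34, adjusted p = 0.000557) and D13Ertd608e (log2 fold change 2.42 ± 0.30, adjusted p = 0.000101) belonged to the same 12. Kdr, the VEGF receptor 2, stood at 3.25, 4.09 and 3.35 CPM in lo-lo and 20.1, 23.3 and 11.02 CPM in lo-hi libraries (log2 fold change 2.37 ± 0.31, adjusted p = 1.75e-05). In 12 of the 12 genes lo-hi 3 was the lowest lo-hi library. The olfactory receptor gene Olfr164 (log2 fold change 2.77 ± 0.48, adjusted p = 0.00404) lost its call without any 1 of 5 libraries (highest adjusted p = 0.0245, without lo-hi 1), and the light chain segment Iglv3 (log2 fold change 2.55 ± 0.43, adjusted p = 0.00289) lost it without lo-lo 1, lo-hi 1 or lo-lo 3 (at most 0.012). Olfr164 (chr16:19284104-19314064), Iglv3 (chr16:19241207-19241690) and Iglc2 (chr16:19198396-19200351), also of the 12, lie near each other on the minus strand. Whether they change separately was not tested.

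The largest fall by that rule was that of Upk1b, a tetraspanin known from the urothelium (chr16:38773184-38800328), with 36.6, 38.9 and 39.5 CPM in lo-lo and 3.31, 3.62 and 3.86 CPM in lo-hi libraries (log2 fold change -3.43 ± 0.27, adjusted p = 4.03e-08). The libraries of each population lay close together for it. Fut7, the fucosyltransferase that makes selectin ligands, stood at 57.9, 71.7 and 76.4 CPM in lo-lo and 7.95, 15.5 and 22.04 CPM in lo-hi libraries (log2 fold change -2.29 ± 0.30, adjusted p = 5.92e-05), and the adhesion molecule L1cam at 40.5, 49.5 and 53.8 CPM in lo-lo and 7.07, 15.5 and 22.04 CPM in lo-hi libraries (log2 fold change -1.82 ± 0.28, adjusted p = 0.000231, or 0.0121 with only the 6 libraries in the fit). In both, as in 10 of the 12 genes with the largest fall, lo-hi 3 was the highest of the lo-hi libraries. Other genes of the 12 belong to cytokinesis, chromosome condensation and repair, namely the formin Diaph3 (log2 fold change -1.77 ± 0.21, adjusted p = 6.83e-06), the kinetochore protein Nuf2 (log2 fold change -1.89 ± 0.27, adjusted p = 4.65e-05), the condensin subunit Ncapg (log2 fold change -1.78 ± 0.30, adjusted p = 0.000263) and Bard1, the partner of BRCA1 (log2 fold change -1.87 ± 0.26, adjusted p = 2.67e-05). Cnn3 (log2 fold change -1.99) and Mxd3 (-1.82) lost their calls without lo-hi 1 (adjusted p = 0.043 and 0.0122), Cnn3 also without any 1 of 4 other libraries. The glycolytic enzyme Hk2 stood at 84.8, 83.3 and 81.1 CPM in lo-lo and 43.7, 32.6 and 46.9 CPM in lo-hi libraries (log2 fold change -1.01 ± 0.16, adjusted p = 0.000132).

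Oxidative phosphorylation and ribosomal protein genes showed few calls, against 5.14% of all genes. In oxidative phosphorylation 0 of 56 genes passed with edgeR, DESeq2 or limma voom (1 had an unadjusted p under 0.05), and in ribosomal proteins 1 of 76 (1.32%) was higher, Rpl31, with 2049.7, 1942 and 2159.8 CPM in lo-lo and 3314, 3366 and 3428 CPM in lo-hi libraries (log2 fold change 0.72 ± 0.12, adjusted p = 0.000299), for which several processed copies exist in the genome. In glycolysis 1 higher and 2 lower calls of 18 (16.7%) were a larger share than that of all genes, as were 2 higher of 22 (9.09%) in cholesterol synthesis, where Insig1 and Pmvk rested on single libraries (highest adjusted p = 0.0655 without lo-hi 1, and 0.0505 without lo-lo 1). Lysosomal proteases had 3 higher of 23 (13%) and the secretory pathway 2 higher of 44 (4.55%), against 2.32% of all genes. In the latter Herpud1 lost its call without any 1 of 6 libraries (highest adjusted p = 0.0751, without lo-hi 1). Gapdh was called lower at low counts (log2 fold change -0.87), where many near-identical copies may take its reads, and not without 5 of the libraries in turn (highest adjusted p = 0.0463, without lo-hi 1).

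Transcripts of other blood cells were present in both populations. Of 25 neutrophil granule genes 0 passed with edgeR, DESeq2 or limma voom and 0 had an unadjusted p under 0.05, but 24 of the 25 estimates lay above 0, with a median log2 fold change of 0.46. Their summed level ranged from 5757 to 19029 CPM in lo-lo and from 10508 to 22053 CPM in lo-hi libraries. S100a8 was highest in lo-hi 1 (9015 CPM) and lo-lo 1 (7724 CPM). Of 21 erythroid and megakaryocyte genes 0 passed with these tools (1 with an unadjusted p under 0.05), but the summed levels did not overlap, with 6057 to 8477 CPM in lo-lo and 9441 to 11812 CPM in lo-hi libraries. Of 14 basophil, mast cell and eosinophil genes 0 passed, also at an unadjusted p under 0.05 with edgeR, with sums of 55.6 to 179 and 126 to 232 CPM. Their part in the differences above was not tested.

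**Figure D4:**
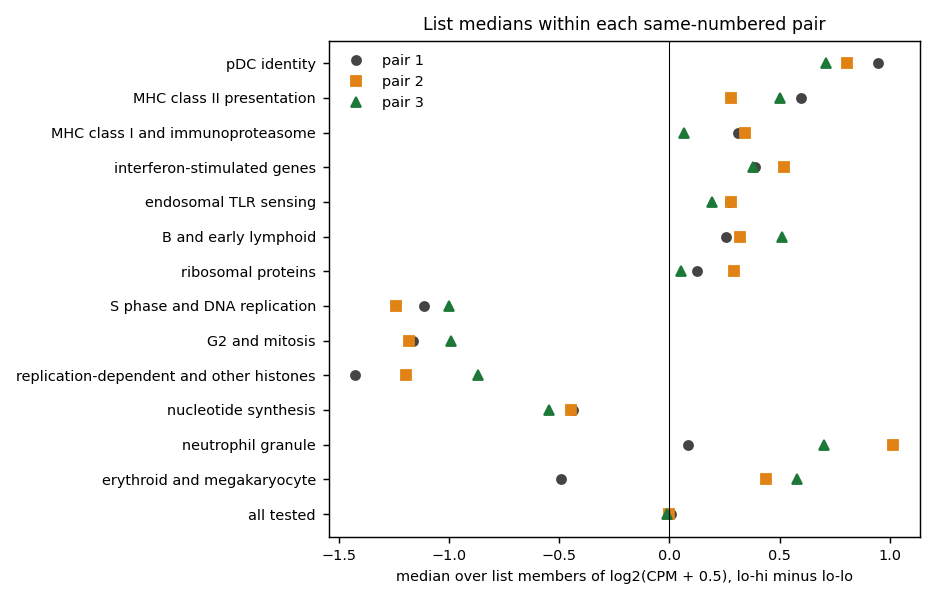
For 13 gene lists and all tested genes, the median over members of the difference in log2(CPM + 0.5), lo-hi minus lo-lo, is shown for same-numbered libraries, with circles, squares and triangles for pairs 1, 2 and 3. Cell cycle and histone lists lie at or below -0.87 in every pair and pDC identity at or above 0.71, whereas the erythroid list changes side between pairs.

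Within same-numbered pairs the main groups kept their direction. The median difference in log2(CPM + 0.5) over pDC identity genes was 0.95, 0.81 and 0.71 in pairs 1, 2 and 3. For S phase it was -1.11, -1.24 and -0.9999, and for G2 and mitosis -1.16, -1.18 and -0.99. Class II genes gave 0.60, 0.28 and 0.50. Neutrophil granule genes gave 0.08, 1.02 and 0.70, and erythroid and megakaryocyte genes -0.49, 0.44 and 0.58. The median over all genes tested was 0.01, 0 and -0.01.

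Whether lo-hi cells depart from the middle between their neighbours was asked with a contrast of lo-hi against the mean of lo-lo precursors and pDCs. With edgeR, 0 of 15265 genes (0%) passed, 794 had an unadjusted p under 0.05, and the smallest adjusted p was 0.219. The Wald test of DESeq2 gave 0 as well.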

How the data were processed

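RNA of sorted bone marrow populations was measured in 12 bulk SCRB-seq libraries. The authors deposited raw counts per gene and well, made from 3′ tagged reads with zUMIs, STAR 2.5.2b and the mouse genome GRCm38, and not normalized. Whether these are reads or molecular identifiers is not given in the sources used here. SCRB-seq counts were not corrected for length, so levels were compared between libraries and not between genes. Genes with a mean count of 1 or more were kept, and wells were grouped by the rank match described above, with replicates in well order.

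Counts were scaled by TMM and tested with edgeR 4.0.16 (quasi-likelihood, robust; R 4.3.3), with all 12 libraries in 1 fit and Benjamini-Hochberg adjustment over 15293 genes. Fold changes are given with their SE, with 3 libraries in each population. CPM are TMM-scaled. The alternatives were DESeq2 1.42.0, limma 3.58.1 (voom), other filters, thinning to 1801463 counts, single libraries left out, a replicate block and the deposited labels. In simulated data for lo-hi against lo-lo (15060 genes), edgeR called 93 of 100 genes changed by 2 and 55 of 100 changed by 1 on the log2 scale, with 4 false calls. The changed genes were drawn from those with a mean count of at least 10, so recovery of scarcer genes was not measured. Deviations of same-numbered lo-hi and lo-lo libraries correlated at 0.195 to 0.315 over genes (3 pairs) and those of different numbers at -0.254 to 0.051 (6 pairs), so the numbers were taken to pair lo-hi with lo-lo libraries. These deviations were taken from each population's mean and so sum to 0, which ties the 2 ranges to each other. The main fit did not use the pairing, which entered only through the replicate block among the alternatives. Over all 4 populations same-numbered libraries correlated at -0.259 to 0.483 (18 pairs) and others at -0.485 to 0.401 (36 pairs), so pairing was not taken to hold there. Where a library is not a separate mouse, p-values measure only the spread between samples.

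Members, gene lists and tests were chosen with earlier results of these data known. Genes were named if they were among the 12 that rose or fell most (at least 10 CPM, not overlapping, no Gm or Rik models) or the 4 with the smallest p of a list, or stood on a short list of sorting, lineage and proliferation genes. Of those, genes that did not pass the test are named in part, and a few others are not reported here. Of 21754 gene identifiers 21410 had a symbol. Promoter windows were those of RefSeq.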

Additional observations from a re-analysis of the deposited data

How the results depend on the processing

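With the wells grouped by their deposited labels, the counts of genes called, called higher and called lower were 0, 0 and 0. Of the 109 named genes called above, 89 then had the same direction without passing and 20 the other direction. The log2 fold changes that reversed, 3 of genes not called above included, were -0.13 (Ly6d), -0.0839 (Ctsl), -0.25 (Cd8a), -0.0458 (Ctsb), -0.11 (H2-Aa), -0.17 (H2-Ab1), -0.23 (Cd74), -0.15 (Ciita), -0.20 (Cxcr3), -0.0487 (Cd79b), -0.0897 (Mzb1), -0.31 (Id3), -0.0326 (Herpud1), -0.76 (Cd79a), -0.15 (H2-Eb1), 0.0412 (Fut7), 0.45 (Mxd3), 0.0008 (Cdk1), 0.15 (Csf1r), 0.26 (Lgals3), 0.53 (Cd34), 0.0738 (Pmaip1) and 0.14 (Klf10). No other alternative reversed a named gene. The cause of the conflict between labels and match was not tested.

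Fitting only the 6 libraries gave 1192 calls (533 higher, 659 lower), the replicate block on these 6 gave 2037 (969 and 1068), and an adjusted p under 0.05 gave 1314 (606 and 708). Leaving out 1 library gave 376 to 689 calls, 189 to 316 higher and 187 to 373 lower, and 70 of the 109 named genes kept their call each time. With 1 library left out, 3 against 2 libraries share the spread of all groups. DESeq2 size factors (792), the Wald test of DESeq2 (786), voom (738), no filter (1041), a mean count of at least 10 (789), thinned counts (628) and the block on 12 libraries (1056) stayed within 1.5 times of 785. For lo-hi against the mean of lo-lo and pDCs, the Wald test of DESeq2 and leaving out each lo-hi library in turn gave 0 calls, and the 12-library block gave 4 (Cd200, Pir, Chil3 and Klk1b27, all higher). That block also takes pDCs and pre-cDCs to be paired, for which same-numbered libraries correlated at -0.259 to 0.483 over all 18 pairs, with pDC 3 at -0.176 with lo-lo 3. The 6-library fit ended the calls of H2-Aa, H2-Ab1, Cd74, Ly6a and L1cam (adjusted p = 0.0121 to 0.0274), and apart from Olfr164, H2-Aa and Cd74 the block ended no call of a named gene. Thinning ended 13 such calls (Cd79b, Nfkb2, Il21r, Herpud1, Insig1, Pmvk, Sirpa, Cd28, Cdk2, Cx3cr1, Egfl7, Gapdh and Itgax, adjusted p = 0.0128 to 0.11), the Wald test of DESeq2 that of Cdk2 (0.015), voom that of Cx3cr1 (0.01) and no filter that of Psmb10 (0.0184). In the 6 lo-hi and lo-lo libraries 3 counts stand for 0.673 to 1.67 CPM (not TMM-scaled), and lower levels could not be told from 0 at this depth.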

Other observations

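Some genes outside the lists and the naming rule also differed between lo-hi and lo-lo precursors, and those named here were chosen after their values were seen. Cd200, an inhibitory membrane ligand, stood at 10.9, 19.1 and 14.5 CPM in lo-lo and 70.01, 67.2 and 61.7 CPM in lo-hi libraries (log2 fold change 2.17 ± 0.19 (SE), adjusted p = 2.13e-07, edgeR). The kallikrein Klk1, whose family members are near copies, was higher as well (log2 fold change 2.25 ± 0.31, adjusted p = 0.000682). Cd8b1 encodes the beta chain that pairs with the product of Cd8a and stood at 15.1, 21.2 and 16.97 CPM in lo-lo and 81.05, 85.4 and 68.3 CPM in lo-hi libraries (log2 fold change 2.15 ± 0.22, adjusted p = 1.11e-06). Surface genes that rose further included Cd38, an ectoenzyme (log2 fold change 1.76 ± 0.24, adjusted p = 2.48e-05), and Cdh1, E-cadherin (log2 fold change 1.75 ± 0.26, adjusted p = 0.000135). The deubiquitinase Tnfaip3 (A20), a brake on NF-kB signaling, was higher (log2 fold change 1.15 ± 0.26, adjusted p = 0.00411), as was Scimp, an adaptor of the immune synapse (log2 fold change 2.28 ± 0.27, adjusted p = 2.36e-05).

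Among genes lower in lo-hi cells, Vim, the intermediate filament vimentin, stood at 763, 790.4 and 944 CPM in lo-lo and 258, 272 and 424 CPM in lo-hi libraries (log2 fold change -1.39 ± 0.18, adjusted p = 1.03e-05). Ptger4, a receptor for prostaglandin E2, stood at 53.2, 52.9 and 62.3 CPM in lo-lo and 21.6, 20.7 and 23.7 CPM in lo-hi libraries (log2 fold change -1.36 ± 0.17, adjusted p = 9.18e-06). Further replication genes outside the lists were lower too, such as Dtl, which directs the destruction of licensing factors (log2 fold change -1.72 ± 0.21, adjusted p = 8.77e-06), Gmnn, the licensing inhibitor geminin (log2 fold change -1.29 ± 0.21, adjusted p = 0.000145), and Melk, a mitotic kinase (log2 fold change -1.29 ± 0.25, adjusted p = 0.000797). In all genes named in these 2 paragraphs the 3 lo-hi libraries lay apart from the 3 lo-lo libraries, as did 27.4% of all genes tested.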
